A study of Rattus norvegicus with 4 samples.

Results

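Prenatal exposure to bisphenol A (BPA), a monomer of polycarbonate plastics that binds estrogen receptors and related nuclear receptors, was compared with vehicle in the hippocampus of newborn rats, across 8355 genes chosen for their mean level. A gene was included if it had an NCBI gene ID, was given for all 4 libraries and had a mean level of at least 5 FPKM (fragments scaled to gene length and to the mapped total of the library). These 8355 genes were drawn from 16375 rows given for all 4 libraries, of which 13171 had a gene ID. The lowest mean among them was 5.008 FPKM (Aurkb), and the highest mean left out was 4.998 FPKM (Nfxl1). The question was which genes and annotated functions moved the same way in male and in female pups.

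Each library was made from 3 pooled hippocampi of Wistar pups on postnatal day 1, with 1 library for each sex under each treatment. The dams received 5000 µg/kg BPA or vehicle each day from gestation day 1 until the pups were born. The dams were 10 weeks old. No allele or transgene is given for any of the 4 groups. Each pup group was 1 pool, so the only replication was the male pair (male BPA against male control) and the female pair (female BPA against female control), which share no library. In the fit blocked by sex, the p-values below therefore rest on how far the male and female changes differed. They also borrow variance from other genes (prior degrees of freedom 6.80). They do not measure the spread between pools of the same group. The study states that its replicates came from independent litters. The litter sizes it lists for the sequenced pups recur between the male and female pools of a treatment, so whether the 2 pools of a treatment share litters is not known, and litter and treatment cannot be told apart. In tissue samples, fewer cells of a type and less RNA per cell cannot be told apart either.

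The hippocampus of a newborn rat is still being built. Granule neurons of the dentate gyrus are being born, radial glia turn into astrocytes, synapses are only beginning to form, and brain cholesterol is made locally because blood cholesterol does not enter the brain. The tissue label was checked with Neurod2 and Camk2a, genes of excitatory forebrain neurons, which were at 48.3 to 77.9 FPKM and 106 to 132 FPKM. Prox1, the transcription factor that marks dentate granule neurons, was at 7.61 to 12.8 FPKM. Eif2s3y, a Y-linked gene, was given for the male libraries only. The steps between low FPKM values placed the depth at 8660000 to 8920000 fragments per library. At that depth the least covered library of a member held a median of 397 fragments, and 719 members had under 100 fragments in at least 1 library.

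The sequences shown first are the promoters of 3 genes of cholesterol synthesis and of Hes5, because these genes were lower in both pairs and belong to the groups described below. Each run is the 250 bases before the RefSeq transcription start in GRCr8, 5′ to 3′ on the gene's strand. In the 3 cholesterol genes, capitals mark a CCAAT box (CCAAT, or ATTGG on the other strand). This box binds NF-Y, a partner of the sterol-sensing factor SREBP. In Hes5, capitals mark the letters TGGGAA (or TTCCCA), the core of the site of RBPJ, the DNA-binding factor of Notch signaling. The Hes5 window also holds the CCAAT letters, left in lower case. Hmgcs1 is at chr2:53382054-53382303 (plus strand), Insig1 at chr4:8057770-8058019 (minus strand), Lss at chr20:12118231-12118480 (minus strand) and Hes5 at chr5:170804327-170804576 (plus strand).
Hmgcs1: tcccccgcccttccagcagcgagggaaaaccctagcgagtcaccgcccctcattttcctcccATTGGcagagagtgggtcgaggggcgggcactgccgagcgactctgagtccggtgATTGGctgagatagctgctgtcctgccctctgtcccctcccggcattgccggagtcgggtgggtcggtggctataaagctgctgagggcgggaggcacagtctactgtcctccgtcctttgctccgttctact
Insig1: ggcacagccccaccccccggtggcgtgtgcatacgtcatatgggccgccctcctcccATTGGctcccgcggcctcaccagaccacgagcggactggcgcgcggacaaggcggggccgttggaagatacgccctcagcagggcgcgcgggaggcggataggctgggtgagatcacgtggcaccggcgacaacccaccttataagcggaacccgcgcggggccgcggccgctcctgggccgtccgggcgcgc
Lss: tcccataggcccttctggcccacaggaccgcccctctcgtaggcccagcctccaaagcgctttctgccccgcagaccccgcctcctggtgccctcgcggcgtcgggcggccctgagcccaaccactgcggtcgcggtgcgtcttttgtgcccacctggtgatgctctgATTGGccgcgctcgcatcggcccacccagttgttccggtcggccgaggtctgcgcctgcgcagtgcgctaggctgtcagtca
Hes5: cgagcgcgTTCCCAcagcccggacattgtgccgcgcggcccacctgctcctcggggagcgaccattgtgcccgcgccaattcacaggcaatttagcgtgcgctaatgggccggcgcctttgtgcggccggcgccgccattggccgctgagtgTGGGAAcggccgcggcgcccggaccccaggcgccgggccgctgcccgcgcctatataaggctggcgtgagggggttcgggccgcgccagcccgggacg

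In these windows, 12 of the 15 cholesterol genes with a RefSeq window held CCAAT on either strand, which is 80%. The same letters stood in 36.8% of the 6888 members with a window and in 36.1% of 27457 rat genes. TGGGAA stood in 20.2% of members. The longer sterol regulatory element TCACNCCAC was in 0 of the 15 cholesterol windows and in 0.929% of members. A full estrogen response element (GGTCA and its reverse complement, 3 bases apart) was in 0 of the 6888 member windows, against 6 of the 27457 genes. These motifs were chosen after the values were seen, and a match or its absence in this window is a description of letters only.

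Changes are given as the difference of log2(FPKM + 1), BPA minus control, which understates the change of weakly expressed genes, and where 4 levels follow each other they are the control and BPA pools of the male pair and then of the female pair. Most members differed little. In 54.9% of them the difference was under 0.2 in both pairs, and the median was -0.0032 in the male pair and -0.014 in the female pair. The spread was wider in the female pair, with an SD across genes of 0.234 against 0.190, and 285 members moved by at least 0.5 there against 126 in the male pair. The sign was the same in both pairs for 4877 members, or 58.4%, with 2263 above 0 in both (27.1%) and 2614 below 0 in both (31.3%). Across the 8355 genes the male and female differences had a Pearson correlation of 0.241 and a Spearman correlation of 0.240, as a description, since genes are not independent replicates.

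The BPA effect was fitted with limma across 13542 rows (mean of at least 1 FPKM) with the sex of the pair as a block. Of these rows, 2 (0.0148%) passed a Benjamini-Hochberg adjusted p of 0.05, and 1 of them, LOC689064, was a member. At an unadjusted p of 0.05, 309 members were higher (3.70%) and 474 were lower (5.67%) in BPA, against 3.60% and 5.38% of all rows fitted. These shares are near those of the whole table, so the unadjusted counts below describe the genes and do not call them. Without the block, 108 members were higher and 229 lower, and 0 passed the adjusted p.

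By size, 5 members were higher by at least 0.5 in both pairs, 17 were lower and 3 moved in opposite directions, where the shares over all rows fitted were 0.554%, 0.916% and 1.13%. Both BPA libraries were above both control libraries for 1219 members (14.6%, against 13.8% of all rows fitted) and below both for 1538 (18.4%, against 19.9%). The 14 members with the largest shared change in each direction were chosen by these values, so their levels are a description.

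**Figure D1:**
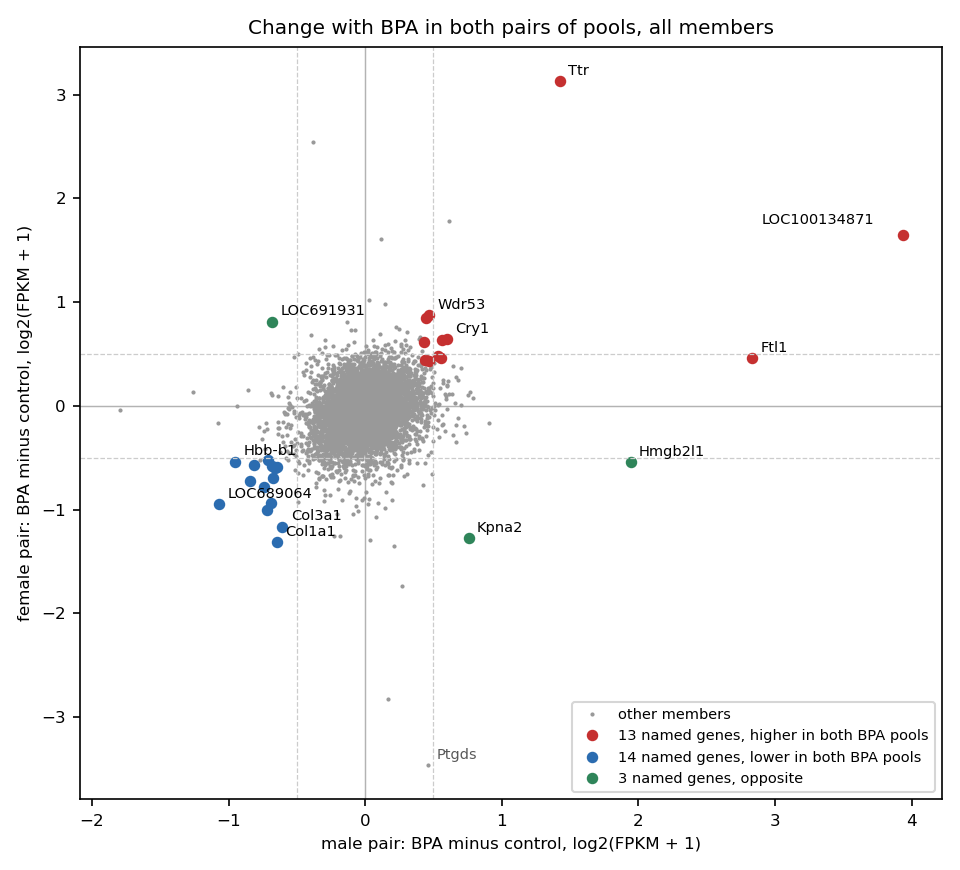
Difference of log2(FPKM + 1), BPA minus control, in the male pair (horizontal) and the female pair (vertical) for the 8355 members, each point 1 gene. Dashed lines mark 0.5 in either direction. Most genes lie near 0, and the labelled genes stand off in the corners, with Ptgds low in the female pair alone.

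Hemoglobin genes stood at both ends. LOC689064, a beta-globin gene, was at 47.8 and 22.3 FPKM in the male pair (control, BPA) and at 42.7 and 21.7 FPKM in the female pair. It fell by 1.01 on the log2 scale (standard error 0.085, limma adjusted p 0.0203), and both BPA pools were below both controls. Its limma adjusted p was under 0.05 in 2 of 11 other fits, those with median ratio scaling (0.0234) and on rows with a mean of at least 5 (0.00366), and from 0.110 to 0.711 in the other fits, which include every one with a library left out. Hbb-b1, another beta globin, was at 66.8, 34.1, 52.6 and 35.9 FPKM in that order. LOC100134871, also a beta globin, was at 1.83, 42.3, 17.2 and 55.9 FPKM, low in the controls and above them in both BPA pools, with about 9 fragments in the male control library. The main globin rows did not follow. Hba1 was at 610, 487, 463 and 564 FPKM and Hbb at 359, 322, 312 and 404 FPKM, lower in the male BPA pool and higher in the female BPA pool. Over all 13 red blood cell rows the summed level was 1462, 1253, 1192 and 1476 FPKM, with the treatments overlapping. Beta-globin genes are close copies among which reads may be split. Adding the new gene model with the same best protein match to LOC689064 gave differences of -0.99 and -0.42 in the male and female pairs.

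Of the other members high in both BPA pools, Ttr encodes transthyretin, the thyroid hormone carrier made by the choroid plexus. Its levels were 256 (control) and 690 FPKM (BPA) in males and 3.96 and 42.4 FPKM in females, so the male control lay above the female BPA pool and the groups overlapped. The 17 choroid plexus markers summed to 285, 732, 24.1 and 59.8 FPKM, mostly Ttr in the male libraries and in the female BPA library. Enpp2, the other marker with a mean of at least 5 FPKM, was at 10.9, 11.1, 10.0 and 7.63 FPKM. The weaker markers are named after their values were seen. Folr1 was at 4.75, 6.63, 2.18 and 1.69 FPKM, Aqp1 at 1.54, 3.70, 0.54 and 0.27 FPKM and Clic6 at 1.34, 2.99, 0.26 and 0.16 FPKM. These were higher with BPA in the male pair and not in the female pair. Kcne2, at 2.02, 4, 1.51 and 3.39 FPKM, was higher in both pairs. The part of choroid plexus tissue in the Ttr difference was not tested.

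The 12 measured markers of excitatory neurons had a median difference of 0.02 in the male pair and -0.05 in the female pair. Tbr1 and Neurod2, which mark young glutamatergic neurons, were at 25.4, 26.9, 20.9 and 29.96 FPKM (male pair, then female pair, control first) and at 76.7, 77.9, 48.3 and 68.8 FPKM. Prox1 was at 12.4, 10.2, 12.8 and 7.61 FPKM, lower in both BPA pools. Rprm, a p53 target that halts the cell cycle and is expressed in cortical neurons, was at 28.2, 38.9, 27.4 and 49.9 FPKM, both BPA pools above both controls.

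Cry1 is taken up with its annotation term below. Other members high in both BPA pools were Cenpl (a centromere protein), Exosc7 (an RNA exosome subunit), Wdr53, Zbtb44, Pde7a (a cAMP phosphodiesterase), Phospho2, Sult2b1 (which sulfates cholesterol), Gsta4 (which detoxifies lipid aldehydes) and Ftl1. Exosc7, for example, was at 9.61, 14.3, 9.64 and 13.9 FPKM and Pde7a at 9.18, 12.9, 10.3 and 14.4 FPKM, with both BPA pools above both controls. Ftl1, the ferritin light chain, was at 8.5, 66.7, 30.8 and 42.7 FPKM. Summed with the new gene model of the same protein, its differences became -0.09 and 0.21 in the male and female pairs, and the sum did not share a direction. Gsta4, summed likewise, went from 0.43 and 0.61 to 0.15 and 0.37.

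Members low in both BPA pools included Gpr37l1 and Hes5, genes of glia. Gpr37l1, a receptor of astrocytes and Bergmann glia, was at 12.1, 6.30, 12.6 and 7.18 FPKM (male pair, then female pair, control first). Hes5, the Notch target that keeps radial glia undifferentiated, was at 10.6, 6.26, 6.33 and 3.92 FPKM. In both genes the BPA pools lay below both controls, narrowly for Hes5, which had about 18 fragments in its least covered library. The log2 difference was -0.78 for Gpr37l1 (standard error 0.131, limma adjusted p 0.151) and -0.63 for Hes5 (standard error 0.153, limma adjusted p 0.356), so neither passed. Nov, a secreted matrix protein also called CCN3, was at 27.3, 16.2, 24.9 and 11.9 FPKM, a difference of -0.86 (standard error 0.109) with a limma adjusted p of 0.0754.

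The other members low in both BPA pools included Apip, an enzyme of methionine salvage, at 9.14, 5.06, 6.71 and 3.47 FPKM, and Arrdc3, an arrestin-like adaptor, at 13.98, 7.5, 17.2 and 11.3 FPKM. Srgn and Lgals1, a proteoglycan core and a galectin that blood, vessel and meningeal cells express strongly, were at 5.31, 2.96, 8.12 and 4.63 FPKM and at 13.6, 7.89, 16.3 and 11.1 FPKM. Every one of these 4 genes had both BPA pools below both controls. Cdc42ep5 and Cisd3 were lower likewise. Rpl39, a ribosomal protein gene, was at 88.9, 56.3, 140 and 92.5 FPKM, with overlap between the sexes. With its matching new gene model added, Rpl39 differed by -0.01 and 0.10, which removed the difference and turned its mean direction.

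**Figure D2:**
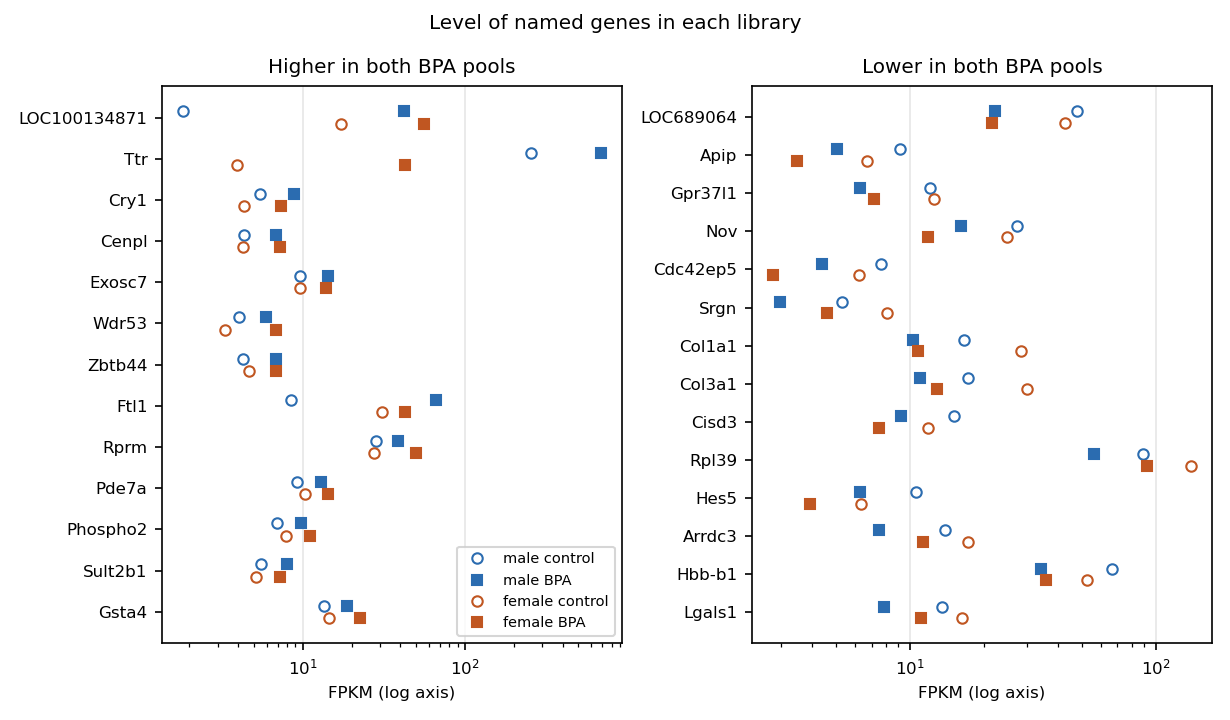
Level in FPKM (log axis) of the members with the largest shared difference, 13 higher and 14 lower in BPA, 1 point per library, with open circles for control, filled squares for BPA, blue for male and orange for female. Both BPA squares lie to one side of both control circles for all genes shown except Ttr and Rpl39.

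Gene lists were then described as groups, by how many members lay on 1 side in both pairs, beside the 27.1% above 0 and 31.3% below 0 found over all members. Astrocyte and radial glia markers were lower. Of 18 measured markers, 12 were below 0 in both pairs and 2 above, and the median difference was -0.12 in the male pair and -0.15 in the female pair, against -0.0032 and -0.014 over all members. In 11 of the 18 both BPA pools lay below both controls, against 18.4% of all members, and 8 passed an unadjusted p of 0.05, all lower, while 0 passed the adjusted p in limma. Slc1a3, the glial glutamate transporter GLAST, was at 158 and 138 FPKM in the male pair (control, BPA) and at 168 and 140 FPKM in the female pair. Vim, the intermediate filament of radial glia, was at 213, 196, 212 and 185 FPKM.

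Genes of maturing astrocytes, named here after their values were seen, were among the lower ones. Aqp4, the water channel of astrocyte endfeet, was at 35.8, 24.9, 37.7 and 27.8 FPKM, and Slc1a2, the glutamate transporter GLT-1, was at 52.9, 38.8, 44.5 and 34.6 FPKM. Glul, which turns glutamate into glutamine, was at 128, 110, 142 and 113 FPKM. Both BPA pools lay below both controls in all 3. Their differences were -0.47, -0.40 and -0.27, with standard errors of 0.084, 0.079 and 0.072. The progenitor factors Sox2, Sox9 and Pax6 did not follow. Sox2 was at 36.3, 35.2, 27.5 and 28.03 FPKM and Pax6 at 5.17, 6.61, 4.62 and 5.20 FPKM. Hes5, a gene of undifferentiated radial glia, had the lowest difference of the list (-0.63), and Vim was lower as well. The lower values were therefore not confined to genes of maturing astrocytes. Gja1, the gap junction protein connexin 43, was at 21.5, 17.2, 34.4 and 17.8 FPKM, high in the female control library, as were the meningeal genes below.

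Oligodendrocyte lineage markers were lower as well, with 6 of 8 below 0 in both pairs, 0 above and medians of -0.17 and -0.24. Olig1, the transcription factor of oligodendrocyte precursors, was at 76.9, 50.8, 52.5 and 39.8 FPKM (male pair, then female pair, control first). Cnp, a myelin enzyme, was at 28.4, 24.7, 24.2 and 21.2 FPKM. Both genes were lower with BPA inside each pair, and the male BPA pool stayed below the female control in Olig1 only. Olig2 was at 15.5, 15, 13.2 and 13.2 FPKM and differed by -0.02. Among 21 markers of cycling cells 10 were below 0 in both pairs and 1 above, with medians of -0.14 and -0.18. Pcna, the sliding clamp of DNA replication, was at 61.3, 53.4, 62.2 and 55.0 FPKM.

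Genes of cholesterol synthesis were lower in both pairs as a group. Of 21 measured genes, 17 were below 0 in both pairs and 1 was above 0 in both, 15 had both BPA pools below both controls, and 9 passed an unadjusted p of 0.05, all lower. In limma 0 passed the adjusted p. The median difference was -0.13 in the male pair and -0.25 in the female pair. Hmgcs1, which makes HMG-CoA, was at 234 and 211 FPKM in the male pair (control, BPA) and at 250 and 217 FPKM in the female pair. Acat2, which joins acetyl-CoA units at the start of the pathway, was at 92.1, 80.2, 95 and 82.4 FPKM. Fdps, which makes farnesyl diphosphate, was at 148, 139, 164 and 139 FPKM. All 3 were lower in both BPA pools than in either control, by modest amounts.

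Insig1 and Lss are named after their values were seen. Insig1, which holds SREBP in the endoplasmic reticulum and is itself induced by it, was at 37.0, 29.1, 37.4 and 29.8 FPKM, almost the same difference in both pairs (-0.34 and -0.32). Lss, which closes the sterol rings, was at 29.9, 24.8, 29.3 and 20.3 FPKM. In both genes the BPA pools lay below both controls. The gene above 0 in both pairs was Srebf2, which encodes the sterol-sensing factor SREBP2 itself, at 43.2, 46.4, 36.7 and 42.4 FPKM. Insig1, Hmgcs1 and Lss are the cholesterol genes whose promoters are printed above, each with at least 1 CCAAT box.

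Collagens and other matrix genes were lower in both pairs, and much more so in females. Of 19 measured genes, 14 were below 0 in both pairs and 0 above, 12 had both BPA pools below both controls, and 11 passed an unadjusted p of 0.05, all lower. The median difference was -0.13 in the male pair and -0.59 in the female pair. Col1a1, the main fibrillar collagen chain, was at 16.7 and 10.3 FPKM in the male pair (control, BPA) and at 28.3 and 10.8 FPKM in the female pair. Col3a1 was at 17.3, 11.0, 30.1 and 12.9 FPKM, and Col1a2 at 14.4, 12.1, 32.7 and 13.1 FPKM. The female control library stood above the other 3. Sparc, a collagen-binding protein that glia also make, was at 195, 184, 233 and 184 FPKM, and Col4a1, a basement membrane collagen of vessels, at 43.5, 39.1, 50.8 and 40.4 FPKM. Both showed the same order with a smaller gap.

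Meningeal fibroblasts express these collagens, and Col1a1, Col1a2 and Col3a1 are counted in the meningeal list as well, so the lists are not independent. The measured meningeal markers were lower with BPA in the female pair and went both ways in the male pair. The 20 meningeal rows summed to 275 and 257 FPKM in the male pair (control, BPA) and to 569 and 211 FPKM in the female pair. Ptgds, the prostaglandin D synthase of leptomeninges, was at 28.9, 40.2, 209 and 18.1 FPKM, and Igf2 at 8.86, 10.9, 29.6 and 8.16 FPKM, both higher with BPA in the male pair and lower in the female pair. Of 13 measured meningeal markers, 8 were below 0 in both pairs. Without the female control library, set against the male control alone, 13 of the 19 matrix genes and 6 of the 13 meningeal markers were lower in both BPA pools, and the matrix median was -0.17 in place of -0.30. Without the male control library it was -0.57. For the other groups the same count was 13 of 18 for astrocyte markers and 17 of 21 for cholesterol synthesis. The part of meningeal tissue in the matrix difference was not tested.

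**Figure D3:**
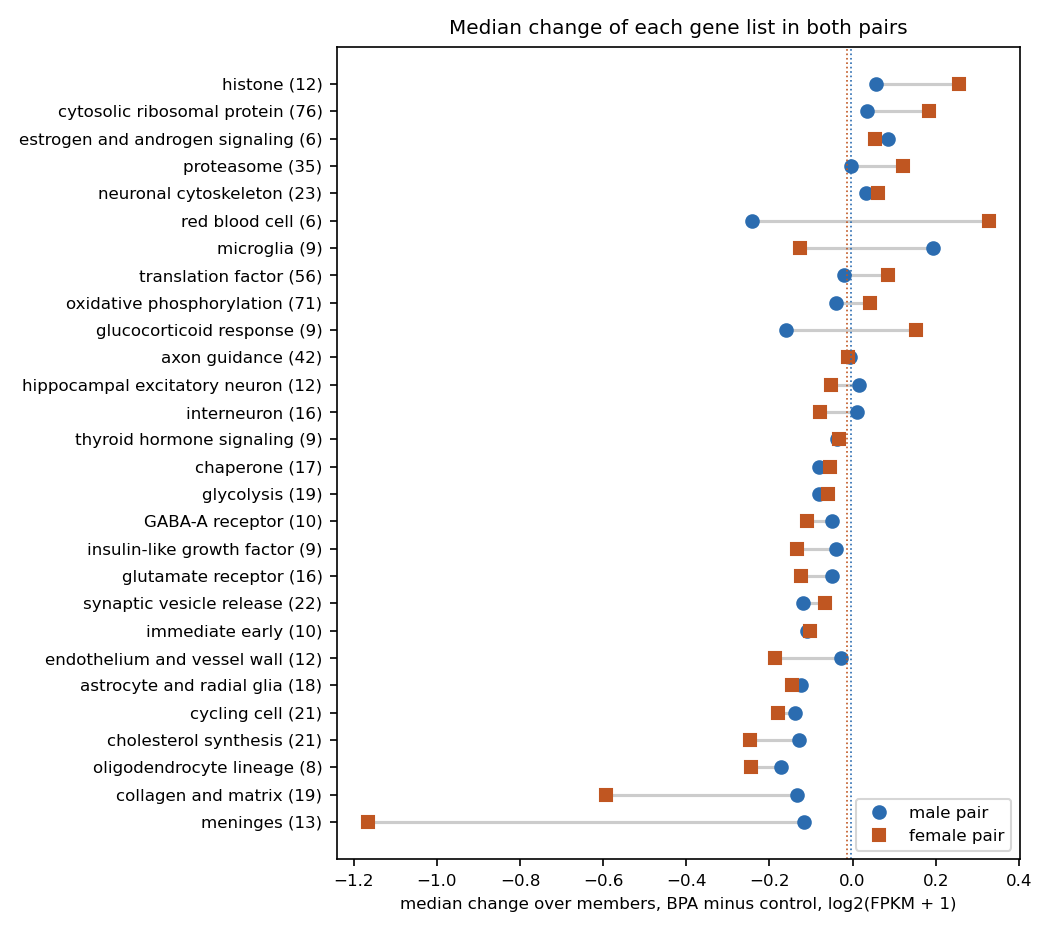
Median difference of log2(FPKM + 1), BPA minus control, over the measured members of each gene list with at least 6 members (number in brackets), with a blue circle for the male pair and an orange square for the female pair. Dotted lines mark the medians of all 8355 members. Glial, cholesterol and matrix lists lie to the left in both pairs, and the meningeal list is far left in the female pair.

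Lists of chaperones and of synaptic vesicle release had smaller medians. Among 17 chaperones 11 were below 0 in both pairs and 2 above, and the median of -0.11 became 0.024 when the male BPA library was left out and -0.016 without the female control. Calr, the calcium-binding chaperone of the endoplasmic reticulum, was at 254, 193, 255 and 205 FPKM (male pair, then female pair, control first), with no overlap. Hsp90b1 and Hspa5, chaperones of the same compartment named after their values were seen, were at 125, 98.5, 140 and 100 FPKM and at 122, 111, 136 and 111 FPKM. Hspa8 and Hsp90ab1, the most abundant chaperones of the list, were at 1040, 990, 1092 and 977 FPKM and at 794, 767, 795 and 827 FPKM. Of 22 genes of synaptic vesicle release, 15 were below 0 in both pairs and 3 above, with medians of -0.12 and -0.07. Syp, the vesicle protein synaptophysin, was at 188, 175, 178 and 170 FPKM. Leaving out the male control library brought the median of this list from -0.09 to -0.025.

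Receptors for the main transmitters leaned the same way, with 9 of 16 glutamate receptor genes and 6 of 10 GABA-A receptor genes below 0 in both pairs, and 1 and 0 above. The GABA-A median of -0.096 became 0.0014 without the female control library. With 1 library left out, the glutamate receptor median stayed between -0.15 and -0.051. Gria1, an AMPA receptor subunit, was at 97.8, 94.4, 102 and 90.4 FPKM. Of 19 glycolytic genes 14 were below 0 in both pairs, with medians of -0.08 and -0.06. Aldoa was at 247, 214, 240 and 204 FPKM, while Gapdh was at 887, 921, 845 and 852 FPKM and was not lower.

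Ribosomal protein and histone genes lay on the other side. Of 76 cytosolic ribosomal protein genes, 46 were above 0 in both pairs and 2 below, with medians of 0.04 and 0.18, but only 5 were higher at an unadjusted p of 0.05. Quantile normalization of the libraries brought these to 30 above and 10 below, with medians of 0.02 and 0.03. Rps2 was at 1345, 1343, 984 and 1208 FPKM and Rpl41 at 1200, 1199, 1311 and 1358 FPKM, with level values in the male pair. Of 12 histone genes 7 were above 0 in both pairs and 1 below, and 5 passed an unadjusted p, all higher. With 1 library left out, the histone median of 0.12 ranged from 0.024 (without the female control) to 0.19 (without the male control). It was 0.072 with a mean of at least 10 FPKM. H3f3b, which encodes histone H3.3, was at 472, 497, 466 and 608 FPKM, and Hist3h2ba was at 98.8, 112, 81.4 and 109 FPKM. Histone genes are close copies, so their single rows are uncertain.

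BPA is known to act through hormone pathways. Of 14 rows of estrogen and androgen signaling only 6 reached 5 FPKM, all of them coregulators or related orphan receptors, with 3 above 0 in both pairs and 1 below. Ncoa1 was at 54.9, 57.8, 57.9 and 54.4 FPKM and Ncor1 at 32.8, 35.1, 32.0 and 38.5 FPKM. Of 9 measured thyroid hormone genes 6 were below 0 in both pairs and 2 above, with medians of -0.04 and -0.03, and 1 (Nrgn) passed an unadjusted p of 0.05. Thra, the main thyroid hormone receptor of brain, was at 540, 502, 480 and 470 FPKM, and Nrgn, a thyroid-responsive synaptic gene, at 212, 178, 170 and 145 FPKM. In Thra and Nrgn the female control was below the male BPA pool.

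Terms of Gene Ontology were taken from the deposited annotation, 1021 of them with 15 to 150 members, and were ranked by the smaller of their male and female medians. The highest was circadian regulation of gene expression. The clock is a loop in which CLOCK and ARNTL (BMAL1) switch on the Per and Cry genes, whose proteins then repress them. Of its 17 members 8 were above 0 in both pairs and 2 below, with medians of 0.10 and 0.11. Cry1, a cryptochrome and the term's largest difference, was at 5.46 and 8.79 FPKM in the male pair (control, BPA) and at 4.35 and 7.37 FPKM in the female pair. The difference was 0.60 in the male and 0.65 in the female pair (standard error of the fit 0.153, limma adjusted p 0.357), with both BPA pools above both controls. Cry2, named after its values were seen, was at 21.1, 27.7, 20.8 and 25.1 FPKM, likewise without overlap.

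The activator Arntl was at 9.47, 9.99, 8.95 and 10.3 FPKM and Per1 at 8.51, 8.68, 8.28 and 9.41 FPKM, smaller differences in the same direction. Of the abundant members, Csnk1e, a kinase that marks Per proteins for decay, was at 132, 130, 124 and 134 FPKM and Hdac3 at 47.4, 46.6, 46.0 and 48.8 FPKM, with the treatments overlapping. Hnrnpu, an RNA-binding protein, was at 188, 175, 193 and 174 FPKM, with both BPA pools below both controls, against the direction of the term. Of 13 term members with a RefSeq promoter window, 1 (Mybbp1a) held the E-box CACGTG to which CLOCK and ARNTL bind, against 9.06% of members. Cry1 had no such window, so its promoter was not searched.

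The next terms were transcriptional activator activity with RNA polymerase II sequence-specific binding (16 members, medians 0.09 and 0.10), transcription factor activity through transcription factor binding (20 members, 0.09 and 0.11), histone modification (15 members, 0.07 and 0.11), ubiquitin-like protein-specific protease activity (28 members, 0.06 and 0.06) and RNA polymerase activity (28 members, 0.08 and 0.06). Hsf2, a heat shock factor of developing brain named after its value was seen, was at 25.3, 30.9, 27.9 and 32.7 FPKM, and Nfix, a factor that drives glial maturation, was at 299, 310, 241 and 278 FPKM. Usp22, a histone deubiquitinase counted in both the histone and the protease terms, was at 294, 307, 261 and 284 FPKM. Of these, only Hsf2 had both BPA pools above both controls. For transcription factor binding, 10 of 20 members were above 0 in both pairs and 0 below. The counts above and below were less one-sided elsewhere, at 8 and 3 for transcriptional activator activity and 7 and 5 for histone modification. They were 16 and 6 for protease activity and 12 and 5 for RNA polymerase activity.

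The lowest terms were positive regulation of cytosolic calcium (25 members, medians -0.11 and -0.13), regulation of calcium-dependent exocytosis (16 members, -0.13 and -0.11), clathrin binding (17 members, -0.11 and -0.12), regulation of heart contraction (21 members, -0.11 and -0.14), vesicle organization (15 members, -0.10 and -0.11) and response to vitamin (23 members, -0.10 and -0.15). For calcium-dependent exocytosis 11 of 16 members were below 0 in both pairs and 0 above. The counts below and above were 14 and 2 for cytosolic calcium, 10 and 1 for clathrin binding and 16 and 2 for heart contraction. They were 10 and 1 for vesicle organization and 12 and 4 for response to vitamin. Rph3a, Syt17, Syt3, C2cd4c, Syt6, Doc2a and Doc2b were in both the exocytosis and the clathrin term, so the medians of these terms were not independent. Doc2b, a calcium sensor of spontaneous release named after its value was seen and also counted in clathrin binding, was at 40.5, 33.0, 39.1 and 30.3 FPKM, with no overlap between treatments. Cadps, which primes dense-core vesicles, was at 49.6, 46.2, 50.2 and 45.1 FPKM, and Ppp3ca, the catalytic subunit of calcineurin, at 92.0, 80.4, 98.6 and 91.6 FPKM.

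Clathrin binding held Snap91, the neuronal adaptor AP180, at 107, 94.8, 104 and 95.6 FPKM, and Caly at 122, 114, 97.9 and 91.3 FPKM, where the sexes overlapped. The heart contraction term held genes shared with brain, among them Gnao1 at 218, 207, 205 and 195 FPKM and Gnai2 at 153, 142, 138 and 123 FPKM. In these, each BPA pool was below its own control but the male BPA pool was above the female control. Response to vitamin held Hmgcs1 and Sparc from the lists above, and Gstp1 at 95.2, 76.8, 86.9 and 77.2 FPKM. Terms were chosen by their values, so none of these medians was tested.

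**Figure D4:**
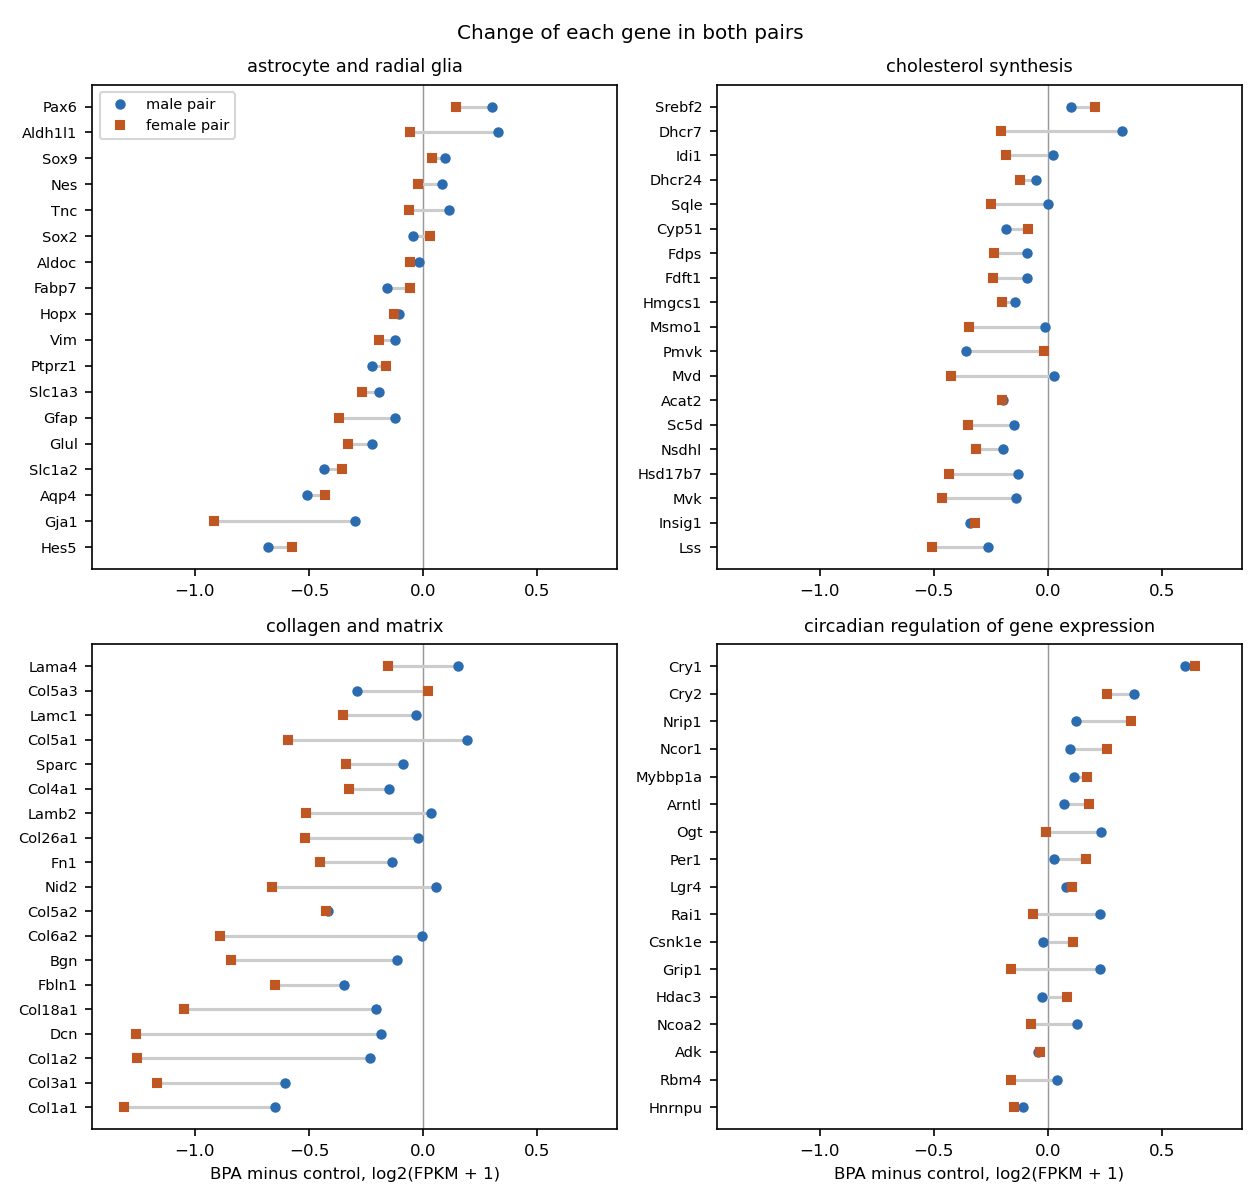
Difference of log2(FPKM + 1), BPA minus control, of genes in 3 lists and in the circadian term, with a blue circle for the male pair and an orange square for the female pair. The pairs nearly coincide for Aqp4, Slc1a2, Insig1 and Cry1, and lie far apart for collagen genes such as Dcn and Col1a2.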

How the data were processed

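The values used are FPKM as deposited by the authors, 1 per gene and library, to 2 decimals with 0.01 as the lowest. The submitters' processing notes name HISAT 0.1.6, Bowtie2 2.2.5, RSEM and build rn6, and read counts were not used here. RNA was extracted with a mirVana kit. The files were joined on gene ID, and log2(FPKM + 1) was modelled in R 4.3.3 by limma 3.58.1, moderated with a trend on mean level, with the sex of the pair as a block and 1 residual degree of freedom per row before moderation, for every row averaging 1 or more, and p was adjusted by Benjamini-Hochberg over all of them. An exact permutation of 2 against 2 libraries cannot go below 0.333, two-sided. Within a pair there is 1 library per treatment and no test. Depth was estimated from rows of 300 to 1500 bases, where 94.6% to 98.7% of low values came within 0.15 of whole fragment numbers. The fit and the depth estimate were tested on simulated data. Joins and descriptions used matplotlib 3.10.9, scipy 1.17.1, pandas 2.3.3 and numpy 2.4.6 under Python 3.11.15.

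The genes, lists and terms were chosen with earlier results of these data known. Genes named are those past the adjusted p, the 14 with the largest difference shared by both pairs in each direction (by the smaller of the 2), the 3 with the largest opposite differences, and up to 4 most abundant members of each list or term described. Others are marked where named, and a few genes are not reported here. Terms are the 6 highest and 6 lowest by the smaller median, skipping a term with most of its members in one already taken. Of 31 gene lists, 1 (mitochondrially encoded) had 0 rows. KEGG entries are orthologs with few genes each and gave none of the named terms. Promoters matched 6888 of the 8355 members by gene ID. The alternatives were another normalization, pseudocount or filter, no block, no trend and leaving out each library.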

Additional observations from a re-analysis of the deposited data

Results flagged for a closer look

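The members with a difference of at least 0.5 in both pairs but in opposite directions are given here. The difference between the pairs was not tested, since a model with it leaves no replicate. Kpna2, an importin that carries proteins into the nucleus, was at 16.1 and 27.9 FPKM in the male pair (control, BPA) and at 17.5 and 6.63 FPKM in the female pair, and the female change minus the male change was -2.04. Summed with 2 new gene models of the same protein it differed by -0.09 and 0.02. Hmgb2l1 was at 1.08, 7, 23.9 and 16.1 FPKM, a value of -2.49 between the pairs, and with 1 new gene model added it differed by 0.17 and -0.19. LOC691931 was at 9.86, 5.78, 5.86 and 11.1 FPKM, a value of 1.49, with no new gene model of the same protein.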

How the results depend on the processing

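The depth, 1 pool per group and 1 residual degree of freedom limit what the calls can show. Of the members, 0 passed the adjusted p under quantile normalization, a pseudocount of 0.1, no filter, no trend, or no replicate block, where the pairing by sex was dropped, and 8 passed when the fit was limited to rows with a mean of at least 5. Those 8 were LOC689064, Rpl39, Ttr, Nov, LOC100134871, Hbb-b1, Col1a1 and Col3a1. The unadjusted counts of higher and lower members were 108 and 229 without the block and 99 and 203 without the trend. Leaving out 1 library, which also drops the block because 3 libraries leave no residual with it, gave 0 to 1 members past the adjusted p, 48 (without female BPA) to 142 (without male control) higher and 72 (without female BPA) to 238 (without male BPA) lower at the unadjusted p. The 1 was LOC100134871, without the female control library (limma adjusted p 0.0199). LOC689064 had limma adjusted p from 0.00366 (mean of at least 5) to 0.711 (no trend) over its alternatives.

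Members past 0.5 in both pairs were 9 higher, 29 lower and 8 opposite with a pseudocount of 0.1, 3 higher and 9 lower with a mean of at least 10, and 5 opposite after quantile normalization. At a threshold of 0.3 they were 55, 128 and 50, and at 1 they were 2, 0 and 0. These counts and the share with the same sign have no value with a library left out, since each needs both pairs.

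Of 287 list and term medians under alternatives, 276 moved by less than the spread between pairs. That spread was wide for some lists, so a median could shrink or change sign and still count as unmoved. Without the female control library the meningeal median went from -0.63 to -0.093, against a spread of 0.72. Without the male control library the immediate early median went from -0.083 to 0.20, against a spread of 0.29. Term medians were not computed with a library left out. The choroid plexus list, with only 2 members, went from 1.06 to 2.28 with a mean of at least 10, and to between -0.40 and 2.51 with a library left out. Leaving out 1 library also moved the interneuron list to between -0.19 and 0.073, synaptic vesicle release to between -0.12 and -0.025, chaperones to between -0.15 and 0.024 and axon guidance to between -0.12 and 0.083. Ttr reversed to -0.57 without the female control library and reached 5.13 without the male control, and summed with its new gene model Rpl39 reversed to 0.044. The cause was not tested. The counts of list members without the female control library were added after seeing the data.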
